A study of Rattus norvegicus with 12 samples.

Results

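Thyroid hormone reaches brain cells as the prohormone thyroxine, which carrier proteins bring across the vessel wall and the choroid plexus and which a deiodinase converts to the active hormone triiodothyronine. The 7 genes described here cover those steps. Dio2 codes for the deiodinase that makes the active hormone and Dio3 for the one that inactivates both hormones, Slco1c1 and Ttr for a transporter and a carrier protein of thyroxine, Thra and Thrb for the nuclear receptors, and Hr for a corepressor that binds those receptors and is itself induced by the hormone. They are 7 of 14217 genes with a probe set, measured by 12 of the 31042 probe sets of transcripts on the array, chosen by name, as every probe set that the platform annotation names for exactly 1 gene symbol equal to a listed one. Dio2, Dio3, Slco1c1, Ttr and Hr had 1 probe set each, Thra 3 and Thrb 4, and 1 further probe set that the annotation assigns to Ttr together with other genes was left out.

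The animals were male Long Evans rats, 6 weeks old and caged singly, with no genetic change named in the labels. Forebrain RNA was taken from 6 that stayed in a standard laboratory cage (control) and from 6 that had spent 3 hours in a new environment with objects in it (exposed), 1 array per animal. Values are the deposited probe set intensities in arbitrary linear units, and changes are exposed minus control on the log2 scale with the standard error of a limma fit to all 31042 probe sets. The genes had been picked from results of this same contrast, so the changes, folds and adjusted p-values given for them describe these 12 animals and are not an independent test.

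In the brain the activating deiodinase is known from astrocytes and from tanycytes, the glia that line the third ventricle, while the receptors are known mainly from neurons. Transthyretin is made in the brain chiefly by the choroid plexus, and the transporter that Slco1c1 codes for is known from brain capillaries and astrocytes. Dio2 transcription is known to respond to cyclic AMP in several tissues, and the hormone itself lowers the transcript. In whole-forebrain RNA, fewer cells of a type and less RNA per cell cannot be told apart.

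The upstream sequences of the 2 deiodinase genes are shown because these enzymes act in opposite directions on the same hormone and one of them was higher in exposed animals and the other was not. Both are the 250 bases before the gene start annotated by RefSeq in build GRCr8, 5′ to 3′ on the strand of the gene, with a TATA box letter match in capitals. Dio2 lies on the minus strand at chr6:115410595-115410844 and Dio3 on the plus strand at chr6:135106822-135107071.
Dio2: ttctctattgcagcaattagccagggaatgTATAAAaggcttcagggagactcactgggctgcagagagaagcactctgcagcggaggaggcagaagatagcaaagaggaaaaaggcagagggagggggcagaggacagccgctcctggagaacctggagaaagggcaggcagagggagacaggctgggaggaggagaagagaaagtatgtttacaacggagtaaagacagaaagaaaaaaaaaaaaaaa
Dio3: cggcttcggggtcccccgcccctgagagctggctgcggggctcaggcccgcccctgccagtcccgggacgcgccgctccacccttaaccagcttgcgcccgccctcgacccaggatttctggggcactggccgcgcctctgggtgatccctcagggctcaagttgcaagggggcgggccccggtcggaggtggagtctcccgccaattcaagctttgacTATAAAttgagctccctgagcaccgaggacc

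The letters TATAAA stood at positions -220 to -215 from the annotated start in the Dio2 window and at -31 to -26 in the Dio3 window. They occur on either strand in 12.9% of 33360 rat windows of the same length. The GC content was 49.6% for Dio2 and 68.8% for Dio3. The cyclic AMP response element TGACGTCA (1.59% of windows), its shorter form TGACG, which lies within it (18.2%), the AP-1 site TGANTCA (6.35%) and the receptor half-site AGGTCA (14.1%) were searched on both strands and matched neither window. The only match of these in the windows of the 5 members with an entry was TGACG in that of Thrb. Because TATAAA lay at -220 to -215 for Dio2, only a short part of that window was upstream of those letters. Sequence farther upstream was not searched, and whether the annotated starts are those used in forebrain was not tested. The lack of a match therefore does not show that the Dio2 promoter lacks these sites.

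The forebrain of exposed animals held more Dio2 RNA, 1.67-fold on average, and the other 6 genes did not differ past the threshold. Passing here means a limma p, adjusted by Benjamini-Hochberg over all probe sets, of less than 0.05. Of the 12 probe sets 1 passed, against 2.56% of all probe sets, 1.97% being higher and 0.599% lower in exposed animals. By gene, at the brightest probe set, 1 of 7 passed, against 3.46% of all genes. Complete separation of the 6 exposed animals above the 6 control animals was also seen for 1 of the 12, against 1.98% of all probe sets, and complete separation below them for 0 of the 12, against 0.725%. Since the genes were proposed from this contrast, nothing is read from these shares.

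Dio2 intensity ran from 89.8 through a median of 109 to 128 in control animals and from 143 through a median of 185 to 219 in exposed animals. Every exposed animal lay above every control animal. The gap was narrow, between exposed animal 3 at 143 and control animal 1 at 128, while exposed animals 1 and 2, at 209 and 219, lay far above it. The group means were 108 ± 12.8 (SD, n = 6) and 183 ± 30.9 (SD, n = 6), and the log2 change was 0.74 ± 0.12 (95% confidence interval 0.48 to 1.01, or 1.39-fold to 2.01-fold, adjusted p = 0.00735 in limma). Among genes that passed, 28 had a larger increase.

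**Figure D1:**
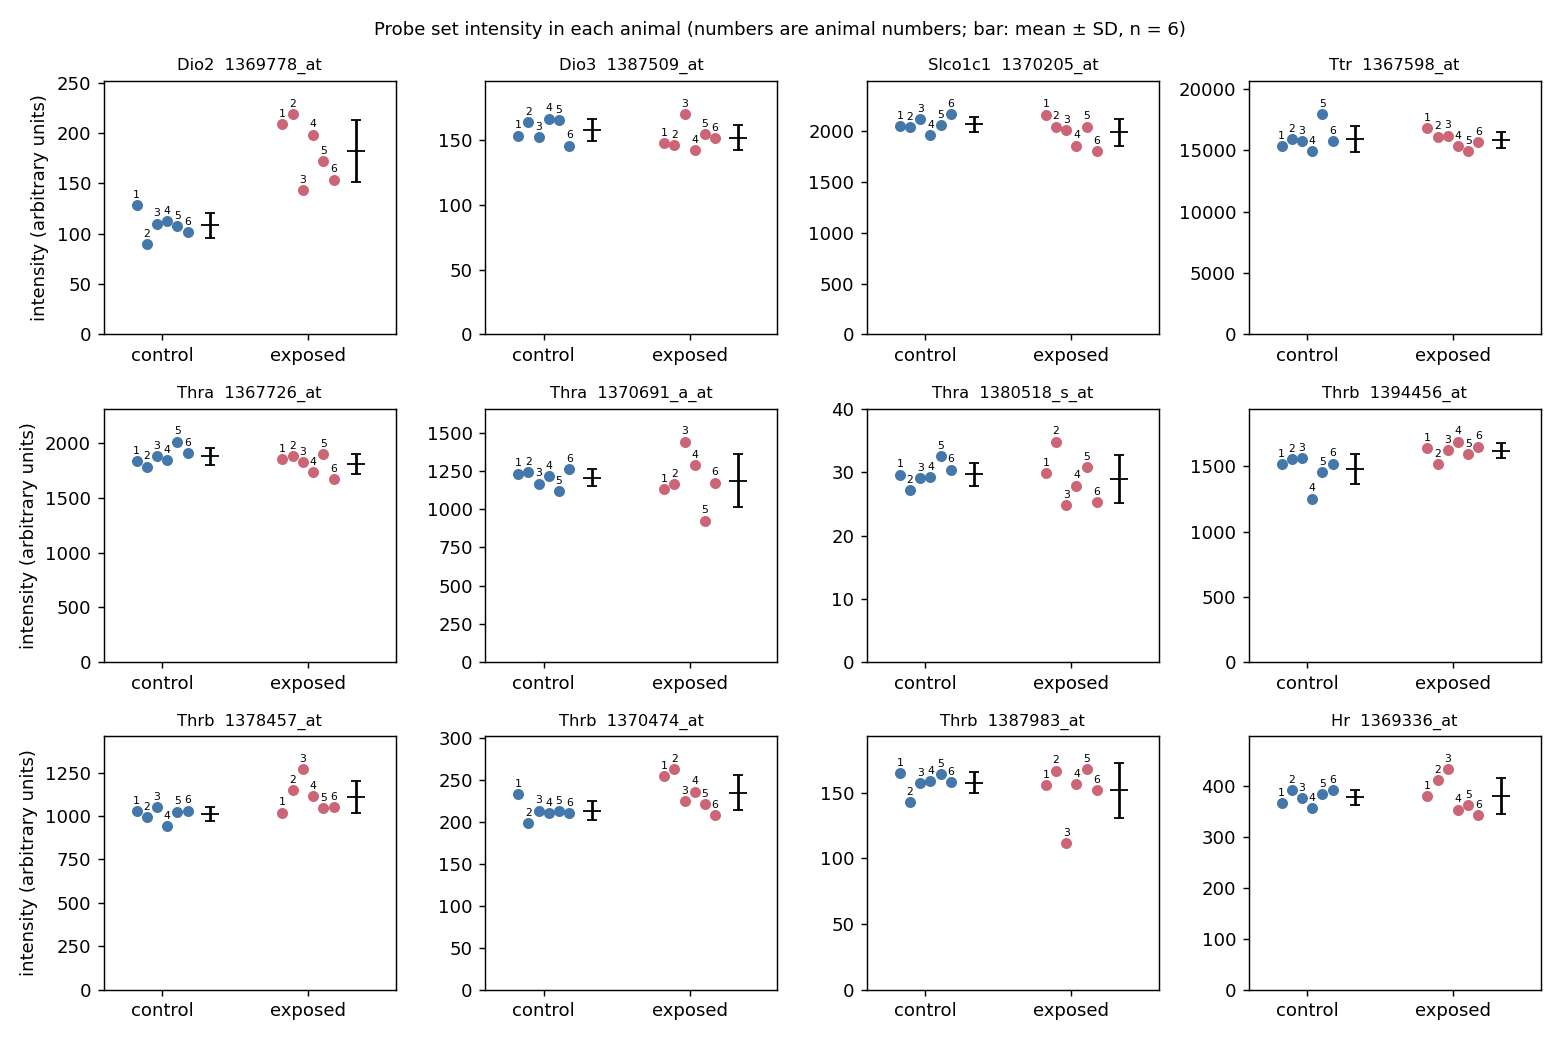
Intensity of each of the 12 probe sets in arbitrary linear units (vertical axis, from 0), by group, with 1 point per animal labelled with the animal number and a bar at the mean ± SD (n = 6). Dio2 is the only panel in which the groups do not overlap, from 89.8 to 128 in control animals and from 143 to 219 in exposed animals.

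Dio2 was a dim probe set, among the 40% with the lowest mean, so that a filter on those leaves it out, and its animals also differed among themselves. The residual SD of its fit was 0.21 on the log2 scale, larger than that of 95.0% of the probe sets that rose above the floor on at least 1 array, where the floor is the low intensity of 53.8 to which dimmer values were raised. In the 12 fits that each left out 1 animal, the log2 change lay between 0.69 and 0.81, with adjusted p between 0.00445 and 0.0211 in limma. The choice of floor mattered more. Under a higher floor, the 40th percentile at an intensity of 148, all 6 control animals and 1 exposed animal were set to it and the log2 change was 0.29 (adjusted p = 0.179, the highest of 26 alternatives, the lowest being 0.000759). Exposed animals 3 and 5 correlated least with their own group over all probe sets (median r 0.995 each), and exposed animal 3 had the highest 3 prime signal relative to 5 prime signal of the array controls, a measure of RNA degradation, at 0.59 on the log2 scale. Without these 2 animals and control animal 4 the Dio2 change was 0.86 (adjusted p = 0.0227), and after adding RNA quality to the fit the change was 0.84 (adjusted p = 0.0103). Control animal 4 stood out in neither measure (median r 0.997, 3 prime relative to 5 prime signal 0.34).

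**Figure D2:**
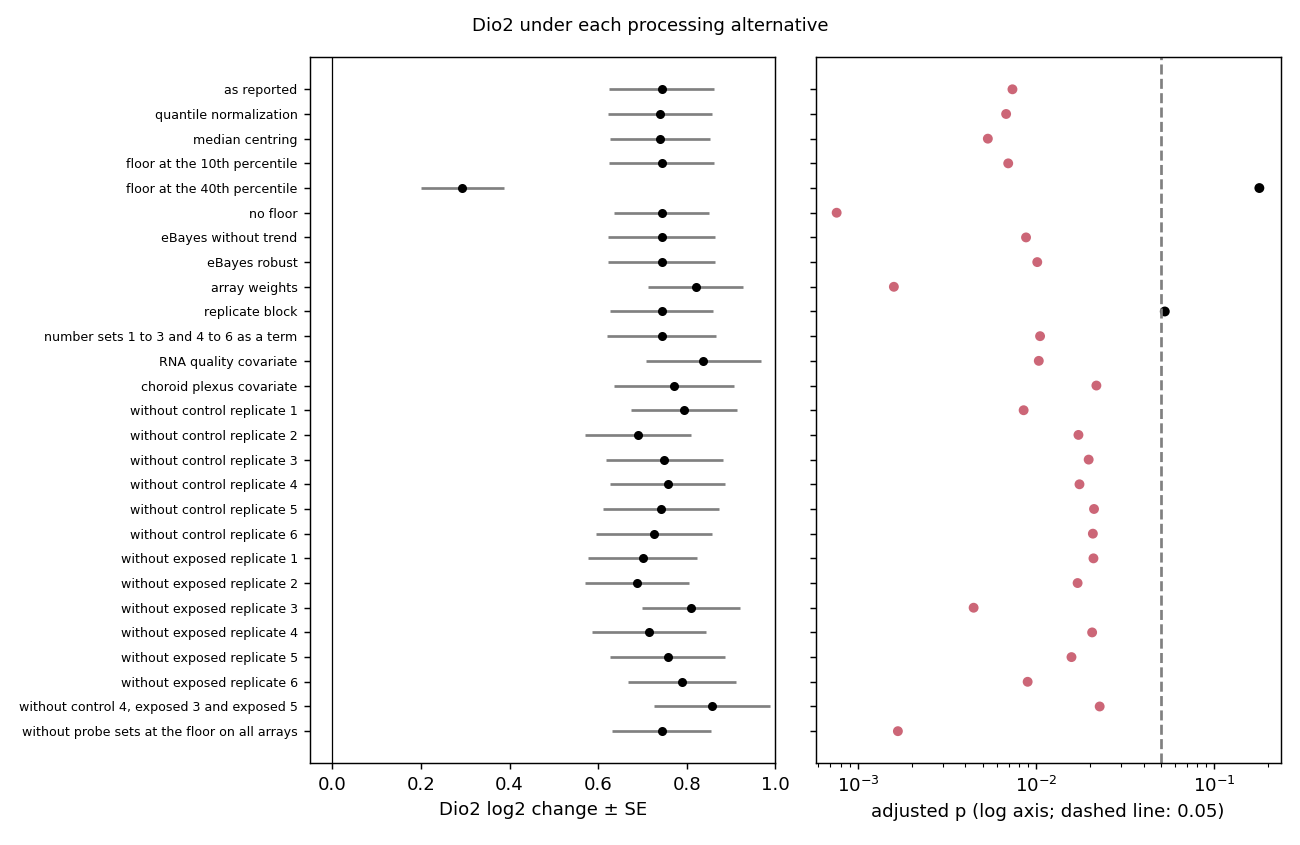
Log2 change of Dio2 ± SE (left axis) and its adjusted p on a log axis (right) as reported and under 26 alternatives. The change lies between 0.69 and 0.86 under every alternative drawn except the floor at the 40th percentile, at 0.29, and the adjusted p lies to the right of the 0.05 line with that floor and with the replicate block.

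Over all 14217 genes, 3.46% passed and 15.9% had an unadjusted p under 0.05. The share counted as positive was 52.2%, but it includes 1543 genes at the floor on all 12 arrays, which had no change. The share with a positive change is therefore smaller. Counts over short lists are to be read against these shares. For the cells known to hold the activating deiodinase the counts were near them. Of 14 astrocyte markers 0 passed in limma (1 at an unadjusted p under 0.05), with a median log2 change of -0.0028 and list means per animal of 11.61 to 11.69 in control and 11.55 to 11.72 in exposed animals. Of 5 tanycyte markers 0 passed (1 unadjusted), with list means of 7.68 to 7.80 and 7.72 to 7.79. Rax, a transcription factor that marks tanycytes, was at the floor on all 12 arrays. Gpr50 averaged 52.3 in control and 50.2 in exposed animals, under the floor of 53.8. Differences in the tanycyte list means therefore come almost only from Frzb, Nes and Vim. Within groups, Dio2 and the astrocyte mean had r = 0.24 over the 12 animals (Spearman rho 0.22, permutation p = 0.541 and 0.528, adjusted p = 0.697 and 0.603 over 8 relations), and r = 0.18 without the 2 animals farthest from the median.

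To ask which transcripts varied with each member beyond the contrast, the group mean was taken from each log2 value and the 3 genes with the highest Pearson r over the 12 animals were noted, from 10308 candidate genes for Dio2 and 10307 for the others, as a description. For Dio2 they were Tars3 (r = 0.92), a threonyl-tRNA synthetase gene, Nfil3 (r = 0.90), a basic leucine zipper repressor, and Slc35c1 (r = 0.89), a GDP-fucose transporter gene. Exposed animal 3 had the lowest exposed value of Dio2, Nfil3 and Slc35c1, and control animal 1 the highest control value of Dio2 and of all 3. Nfil3 was itself higher in exposed animals, at 426 ± 25.6 against 274 ± 11.0 (SD, n = 6 each; log2 change 0.63 ± 0.04, adjusted p = 2.59e-05 in limma), with 6 of 6 animals above every control. Tars3 (log2 change -0.08, adjusted p = 0.662) and Slc35c1 (0.09, adjusted p = 0.444) did not pass. The r values of closest patterns, here and for the other members, are the highest among many candidates over 12 animals. They can be large without any relation and were not tested.

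Dio3, the inactivating enzyme, did not differ past the threshold. Its intensity ran from 146 through a median of 158 to 166 in control animals and from 142 through a median of 149 to 170 in exposed animals, so the groups overlapped. The log2 change was -0.06 ± 0.05 (adjusted p = 0.796), and its 95% interval, from 0.893-fold to 1.04-fold, does not reach the lower bound of 1.39-fold for Dio2. Whether the 2 probe sets changed unequally was not tested.

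The transport genes were bright and steady. Ttr ran from 14924 through a median of 15746 to 17952 in control animals and from 14944 through 15905 to 16837 in exposed animals. The groups overlapped fully, with the single highest value in control animal 5. The log2 change was -0.01 ± 0.05 (adjusted p = 1, interval 0.930-fold to 1.07-fold). Slco1c1 ran from 1960 through 2051 to 2164 in control animals and from 1800 through 2024 to 2159 in exposed animals, and exposed animals 4 and 6 lay below every control. Its log2 change was -0.06 ± 0.04 (adjusted p = 0.698, interval 0.899-fold to 1.03-fold).

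Ttr varied together with choroid plexus markers and Slco1c1 with endothelial markers, while the relation of Slco1c1 to astrocyte markers did not pass. Whether these relations are particular to those cells was not tested. Within groups, Ttr correlated with the mean of the other choroid plexus markers (r = 0.85, Spearman rho 0.85, permutation p = 0.00313 and 0.00200, adjusted p = 0.0250 and 0.0160 over 8 relations). Without control animals 4 and 5, the 2 farthest from the median, r was 0.73. Relative to its group, control animal 5 was highest in both and control animal 4 lowest in both. Slco1c1 correlated with the endothelial mean (r = 0.69, rho 0.69, permutation p = 0.00768 and 0.0122, adjusted p = 0.0307 and 0.0486), and without control animals 4 and 6 r was 0.62. With the astrocyte mean its r was 0.59 (rho 0.57, permutation p = 0.0941 and 0.0893, adjusted p = 0.188 and 0.194), and 0.54 without exposed animals 2 and 4.

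Of 15 choroid plexus markers, Ttr among them, 0 passed in limma (1 unadjusted), with a median log2 change of 0.02, and Kl and Tmem72 were at the floor on every array. Of 11 endothelial markers 1 fell and 0 rose (3 unadjusted), against 0.844% of all genes that fell, with a median of -0.07. Over all genes fewer than 52.2% had a positive change, as that share includes genes at the floor. Among the 11 endothelial changes 1 was positive. That one was Slc2a1, the glucose transporter of brain capillaries, named after its values were seen (log2 change 0.20 ± 0.05, adjusted p = 0.0930, 6 of 6 exposed animals above every control). List means per animal were 9.15 to 9.29 in control and 9.10 to 9.20 in exposed animals. The Slco1c1 change was negative beside these, and their part in its value was not tested. For Slco1c1 itself the genes with the closest within-group pattern were Mapkapk2 (r = 0.93), a kinase of the p38 pathway, Phrf1 (r = 0.89) and Cdv3 (r = 0.87). For Ttr they were Grn (r = 0.89), which codes for progranulin, Tmem212 (r = 0.87) and Eif6 (r = 0.86), a factor of ribosome assembly.

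**Figure D3:**
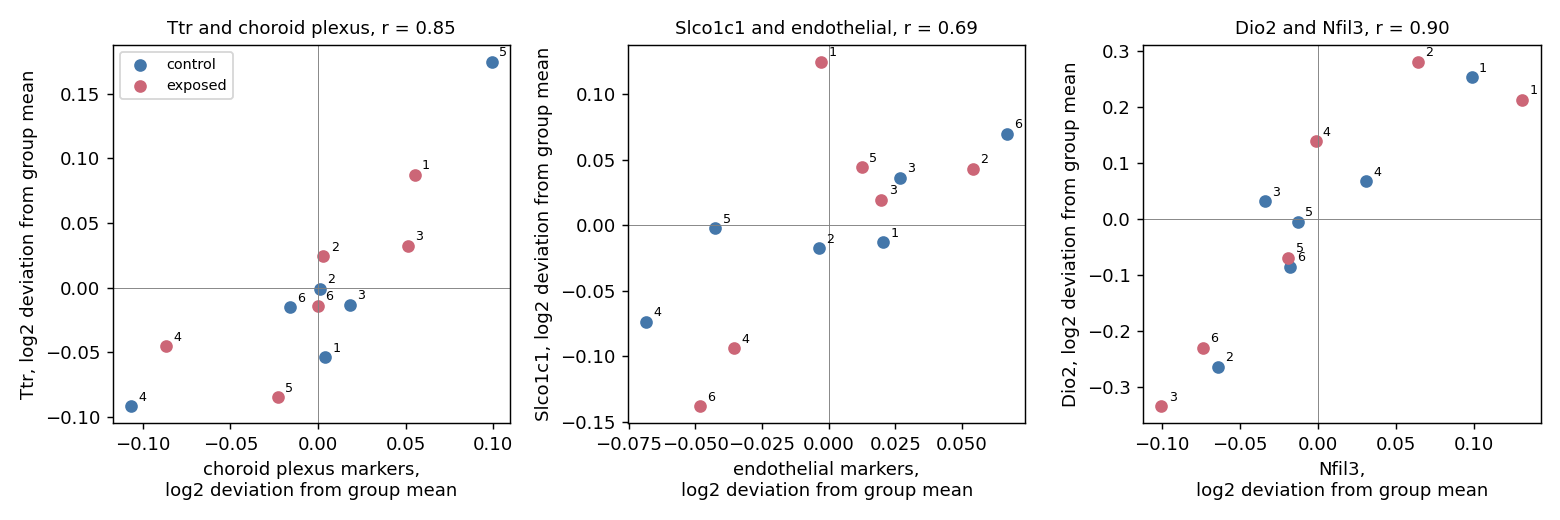
Deviation of each animal from its group mean on the log2 scale, for Ttr, Slco1c1 and Dio2 (vertical axes) against the mean of choroid plexus markers without Ttr, the mean of endothelial markers and the gene Nfil3 (horizontal axes), 6 control and 6 exposed animals labelled by number. Pearson r over the 12 animals is 0.85, 0.69 and 0.90, the last pair having been picked for its high r.

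The receptor genes did not pass. Thra, the more widely expressed receptor gene of the brain, was measured by a bright probe set (1367726_at) that ran from 1787 through 1866 to 2015 in control animals and from 1671 through 1842 to 1901 in exposed animals. The groups overlapped, and exposed animals 4 and 6 lay below every control. The log2 change was -0.05 ± 0.04 (adjusted p = 0.677, interval 0.911-fold to 1.02-fold). A second Thra probe set (1370691_a_at), whose suffix marks probes shared by several transcripts of a gene, had a log2 change of -0.04 ± 0.09 (adjusted p = 1). Its exposed animals spread from 926 in animal 5 to 1441 in animal 3, against 1119 to 1264 in control animals. The third (1380518_s_at) was below the floor on all 12 arrays and gave no change.

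Thrb, whose receptor is known for hormone feedback, hearing and vision, had 4 probe sets, of which 3 had the same small positive change and none passed. The brightest (1394456_at) ran from 1252 through 1518 to 1561 in control animals and from 1519 through 1631 to 1688 in exposed animals. Exposed animals were above every control in 5 of 6 cases, and control animal 4 was low. The log2 changes of the 3 probe sets were 0.14 ± 0.05, 0.13 ± 0.05 and 0.14 ± 0.06, with unadjusted p of 0.0242, 0.0305 and 0.0481 and adjusted p of 0.262, 0.295 and 0.371 in limma. The upper bounds of their intervals were 1.19-fold, 1.18-fold and 1.21-fold. The change of the brightest was 0.09 without control animal 4, and that of 1378457_at was 0.06 with the RNA quality covariate.

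The log2 change of the 4th Thrb probe set (1387983_at) was -0.07 ± 0.09 (adjusted p = 0.950). It was 0.02 without exposed animal 3, which stood at 111 while the other exposed animals lay between 152 and 168. The log2 difference of each dimmer probe set from the brightest one of its gene was compared between the groups in limma. None of the 4 pairs that could be tested in Thra and Thrb passed, against 0.687% of 5535 pairs on the array, and none had an unadjusted p under 0.05. The widest difference was that of 1387983_at, -0.20 ± 0.11 (adjusted p = 0.649). The closest within-group patterns were those of Mxra7 (r = 0.94), Kctd17 (r = 0.93) and Faim2 (r = 0.93) for Thra, and of Dusp26 (r = 0.90), Tspyl1 (r = 0.87) and Prkcb (r = 0.87) for Thrb.

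Hr, the corepressor that the hormone induces in developing brain, ran from 356 through 380 to 392 in control animals and from 343 through 371 to 433 in exposed animals. The exposed group enclosed the control group, with animals 2 and 3 above every control and animals 4 and 6 below. The log2 change was 0.01 ± 0.06 (adjusted p = 1, interval 0.921-fold to 1.10-fold). Within groups its r was -0.66 with the mean of 13 glucocorticoid-induced genes (rho -0.53, permutation p = 0.0440 and 0.121, adjusted p = 0.117 and 0.194 over 8 relations). That value was -0.96 in exposed and 0.20 in control animals (6 each), and -0.35 over all without exposed animals 3 and 6. The relation was not shared by both groups and did not pass. In the exposed group, animals 1 to 3 had higher Hr and a lower glucocorticoid mean than animals 4 to 6. Control animals 1 to 3 also had a lower glucocorticoid mean than control animals 4 to 6, but their Hr values overlapped. With 10 activity-regulated genes r was -0.43 (rho -0.48, permutation p = 0.159 and 0.112, adjusted p = 0.255 and 0.194), and -0.40 without control animal 4 and exposed animal 1. The genes with the closest within-group pattern were Dennd4c (r = 0.92), Aqp9 (r = 0.91) and Sox10 (r = 0.89), a transcription factor of oligodendrocytes.

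**Figure D4:**
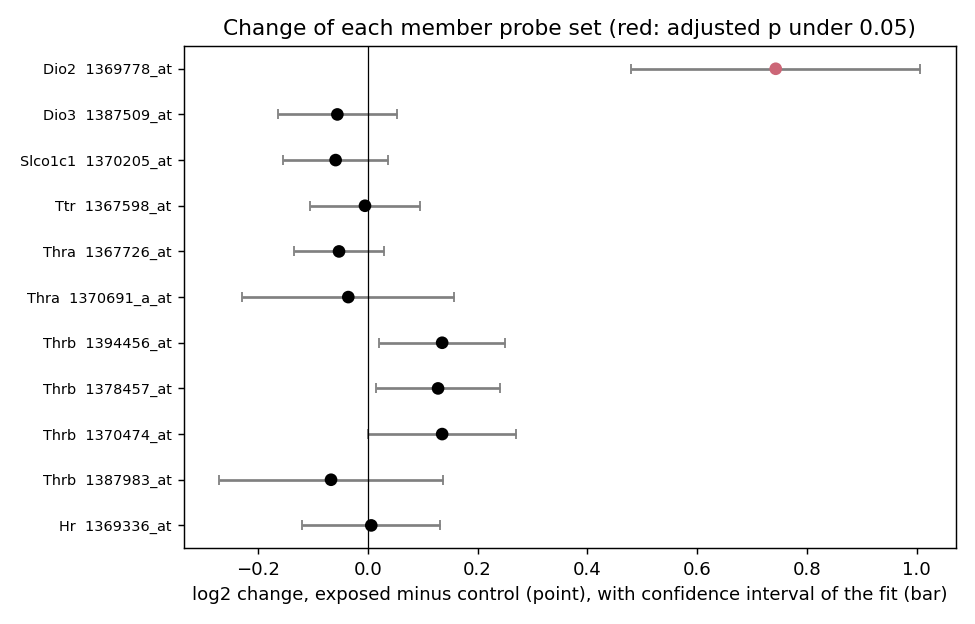
Log2 change, exposed minus control (horizontal axis), of the 11 probe sets above the floor, with 95% confidence intervals from the limma fit as bars. The Dio2 interval, 0.48 to 1.01, lies apart from the others, whose point values run from -0.07 to 0.14.

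The within-group relation of Dio2 and Hr did not pass (r = -0.19, rho -0.17, permutation p = 0.610 and 0.629, adjusted p = 0.697 and 0.629), with r = -0.05 without exposed animals 3 and 6. Dio2 and the glucocorticoid-induced genes had r = -0.06 (rho -0.24, permutation p = 0.867 and 0.485, adjusted p = 0.867 and 0.603), and -0.48 without the same 2 animals. Between the groups, 6 of those 13 genes and 10 of the 10 activity-regulated genes rose in limma, against 372 of 14217 genes (2.62%). The median log2 changes of these lists were 0.45 and 1.53, against 0.00 over all genes, the value that genes at the floor take. Both lists held genes known to rise in these samples.

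Among the other genes of the pathway 1 passed. The list held 31 measured genes for further transporters, binding proteins, receptor partners, cofactors and deiodinase regulators. Of these 0 rose and 1 fell, against 120 of 14217 genes (0.844%) that fell. The median log2 change was 0.00, the value that genes at the floor take. Unadjusted p was under 0.05 for 2 of the 31, against 15.9% of all genes. Slco1a4, which codes for an organic anion transporter of brain capillaries that also carries thyroid hormone, ran from 2145 to 2364 in control animals and from 1730 to 2059 in exposed animals. All 6 exposed animals lay below every control animal. It fell by 0.29 ± 0.04 on the log2 scale (1.22-fold lower, adjusted p = 0.00364), and it is the endothelial marker that fell.

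The next smallest p-values in that list were those of Slc7a8 (log2 change 0.12 ± 0.05, adjusted p = 0.347), an amino acid transporter that also takes up thyroid hormone, Tbl1xr1 (-0.08 ± 0.04, adjusted p = 0.407), a subunit of the corepressor complex, and Slc3a2 (0.07 ± 0.04, adjusted p = 0.504), the heavy chain of amino acid transporters. Among receptor partners and cofactors, Rxra (0.06), Rxrb (-0.01), Rxrg (0.03), Ncor1 (0.00), Ncoa1 (0.01), Ncoa2 (0.01), Ncoa3 (0.18) and Hdac3 (0.00) gave these log2 changes, and none passed. Wsb1 (-0.04), a ubiquitin ligase adaptor of the activating deiodinase, and Usp33 (0.04), a deubiquitinase that acts on it, did not pass either. Nr1d1, which lies on the opposite strand at the 3 prime end of Thra, gave -0.15 ± 0.08 on the same scale (adjusted p = 0.528). Dio1, Slc16a10 and Tshr never rose above the floor.

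Of 14 measured genes known as targets of the hormone, 0 rose and 0 fell, against 3.46% of all genes that passed, and 1 had an unadjusted p under 0.05, against 15.9%. A list this short can hold 0 at that share. The list had a median log2 change of 0.00. Klf9, a zinc finger transcription factor that both thyroid hormone and glucocorticoids induce, came closest. Its intensity was 5144 ± 208 (SD, n = 6) in control and 5687 ± 286 (SD, n = 6) in exposed animals, with 4 of 6 exposed animals above every control (log2 change 0.14 ± 0.04, adjusted p = 0.0752). Over 27 alternatives its adjusted p ran from 0.0162 to 0.197, and it was under 0.05 in 7 of them. Aldh1a1 (0.16 ± 0.11, adjusted p = 0.653), Atp2a2 (0.03 ± 0.02, adjusted p = 0.717) and Camk4 (-0.05 ± 0.04, adjusted p = 0.795) followed. Nrgn, which codes for neurogranin and is a known target in forebrain, had a log2 change of -0.01 ± 0.04, and Mbp, the myelin basic protein gene, 0.02 ± 0.02.

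**Figure D5:**
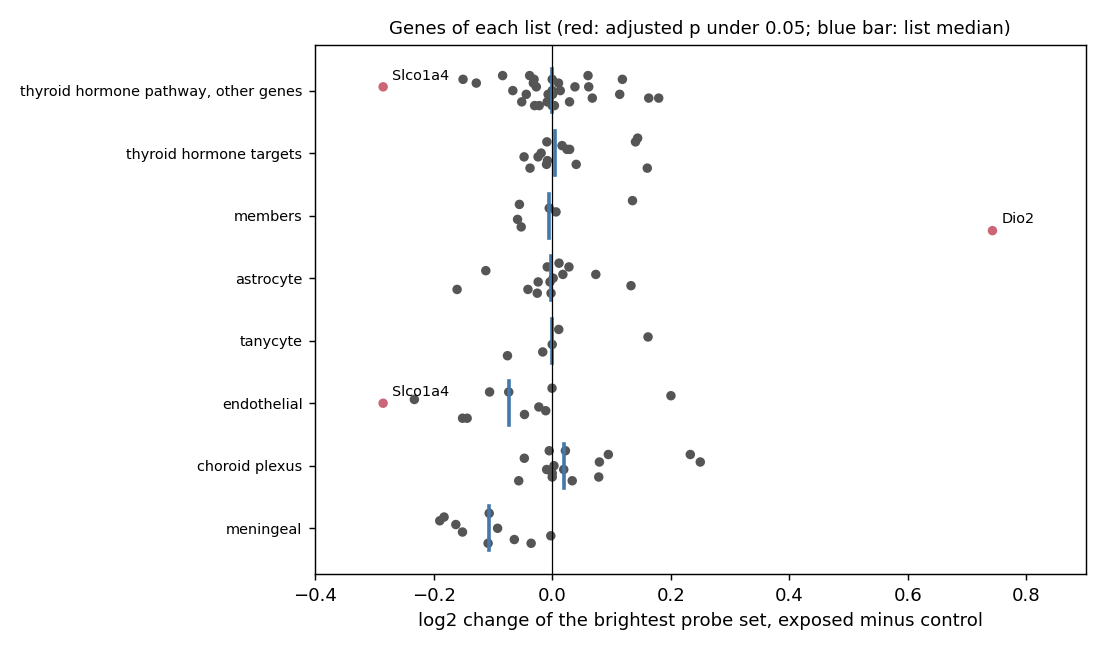
Log2 change per gene at its brightest probe set, exposed minus control (horizontal axis), for the 8 lists drawn (the members, the pathway and target lists and 5 cell type marker lists), 1 point per gene, red where the adjusted p was under 0.05 and with a blue bar at the list median. Dio2 at 0.74 and Slco1a4 at -0.29, which is in 2 lists, are the only red points in these 8.

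For markers of other cell types the counts were again near the share of 3.46% over all genes. In limma 0 of 12 neuron markers (3 unadjusted), 0 of 9 oligodendrocyte markers (0 unadjusted), 0 of 9 microglia markers (1 unadjusted) and 0 of 10 meningeal markers (2 unadjusted) passed. The 10 meningeal changes were all negative, with a median of -0.11. Fewer than 52.2% of all genes had a positive change, as that share includes genes at the floor. Meningeal list means were 9.87 to 10.08 in control and 9.76 to 9.92 in exposed animals. The part of the meningeal changes in the values above was not tested.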

How the data were processed

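Forebrain RNA of 12 rats was measured on 12 arrays. The values deposited by the authors are linear intensities, 1 for every probe set on every array. RNA came from a Trizol extraction with a column cleanup and was labelled, per the labels' protocols, by the standard Affymetrix procedure. Background correction, summary and normalization are not given in the sources used here. Array medians lay between 235 and 245, so nothing was normalized again. Depth is not defined for arrays, and their number limits precision.

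Values under the 20th percentile (53.8) were set to it, and log2 was taken. The group was fitted with lmFit and eBayes (mean-variance trend) of limma 3.58.1 in R 4.3.3, with Benjamini-Hochberg over 31042 probe sets and the 57 array controls left out. On simulated data for this comparison (31042 probe sets) the fit recovered 95% of 100 changes of 0.5 and 98% of 100 changes of 1 on the log2 scale. These changes were placed only in probe sets with a mean log2 above 7, and 12 unchanged probe sets also passed. The simulated noise was normal and independent between probe sets, so dimmer probe sets and effects shared by whole arrays were not covered. Changes smaller than 0.5 were not simulated. A gene in a list is represented by its brightest probe set. All 12 member probe sets kept their symbol through the RefSeq gene table of build GRCr8, and 5 of 7 members had an entry in its promoter table. Correlations used values centred within each group and 100000 permutations within groups (two-sided, permutation test).

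The members and lists were chosen with earlier results of these data known. Named are all member probe sets, the genes that passed in the cell type marker, pathway and target lists, the 4 with the smallest p in the latter 2, and 3 genes with the closest pattern for 6 members. Other pathway and target genes were named for their role after their values were seen. Same-numbered animals did not deviate together (correlations from -0.08 to 0.16, 2 of 6 over 0.1), so the numbers were not taken as pairs. The numbers were still not without structure. In both groups the mean of the glucocorticoid-induced genes was lower in animals 1 to 3 than in animals 4 to 6. It was 9.08 to 9.16 against 9.33 to 9.42 in control animals and 9.45 to 9.65 against 9.87 to 9.90 in exposed animals. The cause of this split was not tested. Alternatives covered normalization, the floor, the filter on dim probe sets, the variance model, array weights, the block, covariates and leaving out animals.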

Additional observations from a re-analysis of the deposited data

Results flagged for a closer look

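Among 22 sets of 6 animals (11 probe sets above the floor in 2 groups), 4 held an animal whose gap to its nearest neighbour took more of the whole range than Dixon's critical value for 6 samples allows. Chance gives about 1 in 20 such sets. Thrb probe set 1387983_at had control animal 2 at 143 (next 157) and exposed animal 3 at 111 (next 152). Thrb probe set 1394456_at had control animal 4 at 1252 (next 1455). Ttr had control animal 5 at 17952 (next 15893), the control animal that was also highest in the mean of the other choroid plexus markers.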

How the results depend on the processing

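The Dio2 increase was positive in all 26 alternatives that gave a value and passed in 24. The count of member probe sets that passed was 0 in place of 1 in 3 cases: with the floor at the 40th percentile, with the dimmest 40% of probe sets left out, which removes Dio2 from the fit, and with the replicate block. With the replicate number as a block, Dio2 kept its log2 change of 0.74 at adjusted p = 0.0526, and over the whole array 359 probe sets passed as higher and 76 as lower, against 610 and 186 without it. The animal that correlated best in deviation was the one with the same number for 1 of 6 control and 2 of 6 exposed animals. The block changed no other member's call. The number of lower probe sets over the array was 314 with array weights, 72 with the RNA quality covariate, 104 with the choroid plexus covariate and 82 without control 4, exposed 3 and exposed 5. Leaving out 1 animal gave 103 to 182 lower and 451 to 622 higher. Allowing for a difference between animals 1 to 3 and animals 4 to 6 gave 247 lower and 714 higher. The cause of these shifts was not tested. Of the hormone targets 1 gene, Klf9, passed in place of 0 under quantile normalization, without the dimmest 40%, with no floor, with array weights, with animals numbered 1 to 3 and 4 to 6 as a term, with the RNA quality covariate and, chosen after seeing the data, without probe sets that never rose above the floor. No member other than Dio2 passed under any alternative. The signs of Ttr, Hr, 1370691_a_at of Thra and 1387983_at of Thrb were not the same in all alternatives.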
